A study of Homo sapiens with 10 samples.

Results

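The genes described here are 41 interferon-stimulated genes, chosen by name, in T47D human breast cancer cells that carried an inducible progesterone receptor (PR). For each gene the probe set assigned to that symbol alone with the highest mean over the arrays was used. Of the 41 genes, 39 had such a probe set and 37 were tested, among 10911 tested genes of 11963 on the array. A gene was tested if its log2 signal reached 6 on at least 1 array. IFI16 and TRIM22 stayed below that floor and are given by their values, and STAT2 and IFI30 are not analysed here.

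The study asked how SUMOylation of PR changes the genes that progestin regulates. Clonal T47D lines carried an empty vector (iEV), wild-type PR-B (iWT) or the SUMO-deficient K388R mutant (iKR) in a system induced by the dimerizer AP21967. All were made from T47D-Y cells, which lack PR, so every line shares that background, and line and vector cannot be told apart because each vector was represented by 1 line. Total RNA went onto 10 Affymetrix human genome arrays, 1 per condition, with no replicate of any condition. The 2 iEV arrays held cells with neither compound or with AP21967. The 4 iWT arrays and the 4 iKR arrays each held cells with neither compound, with the synthetic progestin R5020, with AP21967, and with both. AP21967 was given for 2 days and R5020 or vehicle for 6 h to starved cells.

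Interferons act through cell-surface receptors and the JAK kinases to activate transcription factors, and IRF9 is a subunit of the complex ISGF3 among them. ISGF3 binds the interferon-stimulated response element (ISRE) in the promoters of antiviral genes, and the gamma-activated sequence (GAS) is the element known from the response to type II interferon. Many of these genes keep a basal level without added interferon, and a standing interferon signature is known in subsets of breast tumors.

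The values are log2 signals, and a difference of 1 is a 2-fold change. The median signal over all probe sets was 8.12 to 8.15 on the 10 arrays. Arrays have no read depth, so their number limits the precision. The PGR probe set read 6.17 and 6.25 on the iEV arrays and 10.65 to 12.08 on the iWT and iKR arrays, with or without AP21967. All 8 markers of luminal breast epithelium read between 8.68 and 15.04, and 4 of 6 immune cell markers had a probe set and read between 6.02 and 7.39. Of the 8 luminal markers, ESR1 and GATA3 alone were called lower in iKR than in iEV (-0.85 and -0.30) and than in iWT (-0.96 and -0.27). None of the 8 was called higher, and their medians were -0.06 and -0.14. The shares of all tested genes called lower were 10.1% and 3.47%. Whether ESR1 and GATA3 bear on the differences below was not tested. In bulk RNA, fewer cells with a transcript and less transcript per cell cannot be told apart.

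RefSeq promoter windows, 250 bases before to 50 bases after a start on GRCh38.p14, were matched for 34 of the 41 genes. An ISRE core, spelled GAAANNGAAA and searched on both strands with overlapping matches kept, was found in 21 of the 34 genes (61.8%) and in 4.13% of all genes on the array with a window. A GAS core, TTCNNNGAA, was found in 11 (32.4%), beside 9.18% of array genes. A loose core of the progesterone response element, ACANNNTGT, was found in 3 (8.82%), namely HERC5, MX1 and SP100, beside 5.30% of array genes. Both of these cores read the same on either strand. No window was matched for TRIM22, OASL, IFIT2, USP18, MX2, IRF7 or OAS2. The stretches below are the 150 bases before the start, read 5′ to 3′ on the strand of the gene, with the letters of each ISRE core in capitals. The first 5 belong to genes that differed in all line comparisons, RSAD2 and ISG20 to genes that went the opposite way, and TRIM14 and HERC5 to genes called higher with R5020.
IFIT1, chr10:89392473-89392622, plus strand: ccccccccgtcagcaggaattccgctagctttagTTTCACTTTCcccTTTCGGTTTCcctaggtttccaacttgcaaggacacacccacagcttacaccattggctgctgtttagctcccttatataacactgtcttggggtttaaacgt
IFI6, chr1:27672193-27672342, minus strand: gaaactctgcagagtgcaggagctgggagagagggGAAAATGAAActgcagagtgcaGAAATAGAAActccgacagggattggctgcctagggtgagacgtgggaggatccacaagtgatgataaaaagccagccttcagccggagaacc
IFI27, chr14:94110586-94110735, plus strand: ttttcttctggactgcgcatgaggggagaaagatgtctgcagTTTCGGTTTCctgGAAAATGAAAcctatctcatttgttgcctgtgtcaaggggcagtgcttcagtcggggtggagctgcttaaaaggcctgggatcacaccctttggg
ISG15, chr1:1013347-1013496, plus strand: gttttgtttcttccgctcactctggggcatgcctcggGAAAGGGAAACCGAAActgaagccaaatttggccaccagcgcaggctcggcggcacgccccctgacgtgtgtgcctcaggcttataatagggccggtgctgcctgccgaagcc
BST2, chr19:17405631-17405780, minus strand: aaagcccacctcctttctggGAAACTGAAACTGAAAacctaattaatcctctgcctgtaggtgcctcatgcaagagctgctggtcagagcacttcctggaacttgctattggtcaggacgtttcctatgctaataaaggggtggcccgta
RSAD2, chr2:6877627-6877776, plus strand: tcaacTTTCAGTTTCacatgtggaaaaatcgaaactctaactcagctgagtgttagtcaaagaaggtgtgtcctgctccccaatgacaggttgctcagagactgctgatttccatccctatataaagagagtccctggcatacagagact
ISG20, chr15:88638866-88639015, plus strand: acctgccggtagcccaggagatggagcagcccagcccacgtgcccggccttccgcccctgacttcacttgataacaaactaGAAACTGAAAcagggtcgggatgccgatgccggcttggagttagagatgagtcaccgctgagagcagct
TRIM14, chr9:98119223-98119372, minus strand: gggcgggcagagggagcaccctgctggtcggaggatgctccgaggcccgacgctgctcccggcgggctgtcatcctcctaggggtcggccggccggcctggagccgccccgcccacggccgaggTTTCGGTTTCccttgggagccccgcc
HERC5, chr4:88456969-88457118, plus strand: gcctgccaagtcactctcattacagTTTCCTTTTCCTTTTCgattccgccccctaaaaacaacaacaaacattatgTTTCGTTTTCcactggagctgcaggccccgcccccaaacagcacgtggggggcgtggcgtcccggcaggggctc
For IFI27, the earlier of 2 RefSeq starts is shown. The cores of IFIT1 lie 103 and 116 bases before its start and those of ISG15 at 107 and 113, while the core of TRIM14 lies 26 bases before its start. A core was present in 9 of the 10 genes called lower in all 3 line comparisons, OAS1 being the exception. It was also present in RSAD2 and ISG20, and in 4 of the 6 genes with a window and no line call. Genes with this core were therefore found on both sides and among genes not called.

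Most of the interferon-stimulated genes were called lower in iKR than in iEV, and some of these were also called lower in iKR than in iWT. By limma across all genes, with the treatments as covariates, 18 of 37 were lower in iWT than in iEV (background 10.4% of all tested genes) and 3 were higher (9.43%). In iKR against iEV, 25 of 37 were lower (10.1%) and 4 were higher (11.5%). In iKR against iWT, 13 of 37 were lower (3.47%) and 2 were higher (5.14%). Calls used a Benjamini-Hochberg adjusted p under 0.05. Without the floor, 39 genes were tested, of which 19, 26 and 13 were lower and 3, 4 and 2 higher in the same order. The median differences were -0.27, -0.37 and -0.13 in that order, beside 0.01, 0.00 and 0.00 over all genes. In these fits, arrays of 1 line under different treatments stand for replicates, so p measures only the spread between those arrays.

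**Figure D1:**
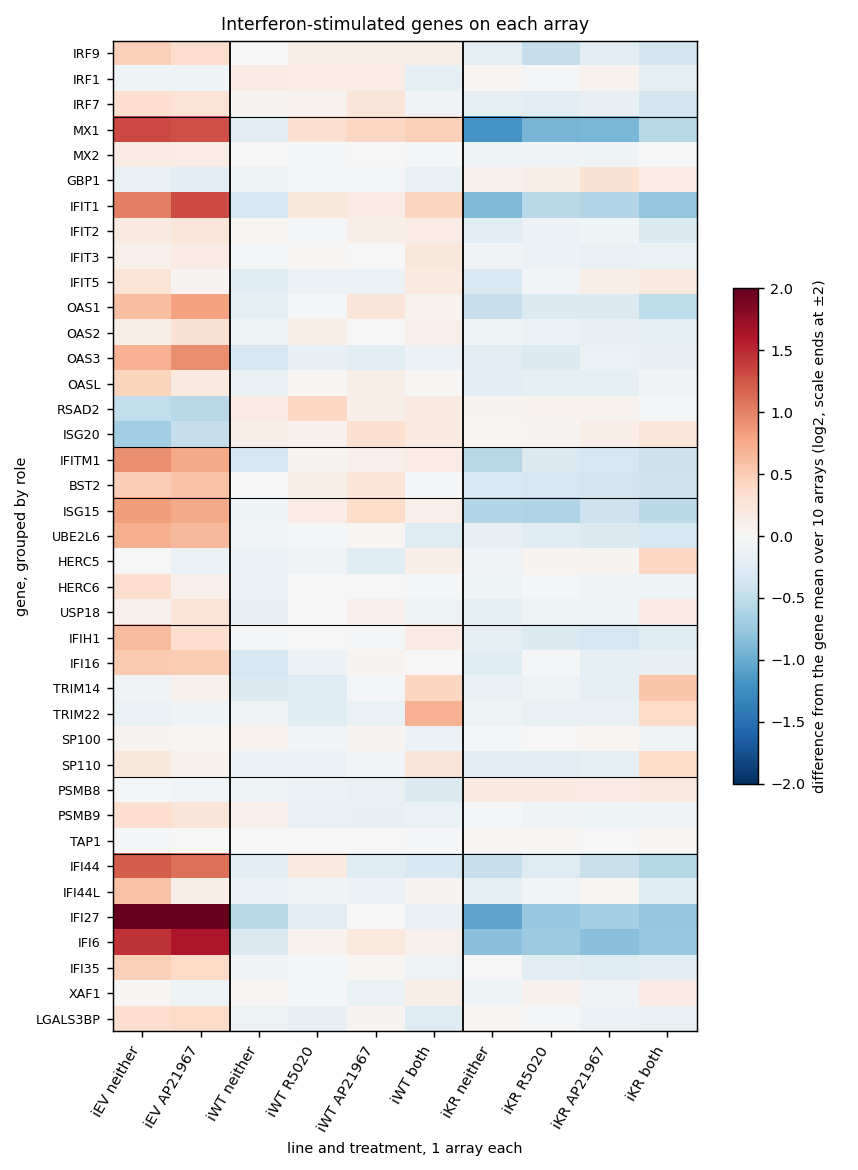
Log2 signal of 39 interferon-stimulated genes (rows, grouped by role) on each of 10 arrays (columns) as a difference from the mean of that gene, in red above and blue below. MX1, IFIT1, IFI27 and IFI6 are red on both iEV arrays and blue on all 4 iKR arrays, while RSAD2 and ISG20 are blue on both iEV arrays.

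The order of the lines held array by array for many of the genes. Every iEV array was above every iWT array for 24 of 37 genes (20.5% of all genes), and every iWT array was above every iKR array for 13 (4.29%). Both held for 11 genes (1.03%): IRF9, IRF7, MX1, IFIT1, IFIT2, OAS1, BST2, ISG15, IFIH1, IFI27 and IFI6. Both iEV arrays lay below every other array for GBP1, RSAD2 and ISG20 (3 genes, 12.8% of all genes), and every iWT array lay below every iKR array for GBP1, PSMB8 and TAP1 (3 genes, 5.89%). Limma called 10 genes lower in all 3 line comparisons (0.862% of all genes): MX1, IFIT1, OAS1, IFITM1, BST2, ISG15, IFIH1, IFI44, IFI27 and IFI6. The comparisons share arrays, so these counts are not independent of each other.

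In what follows, iEV values are given for neither compound and then AP21967, and iWT and iKR values for neither, R5020, AP21967 and both. The transcription factors come first. IRF9, the DNA-binding subunit of ISGF3, read 9.52 and 9.40 in iEV, 9.06, 9.18, 9.19 and 9.17 in iWT, and 8.87, 8.58, 8.83 and 8.69 in iKR. The 3 lines did not overlap, and IRF9 was lower in iKR than in iEV (-0.68, SE 0.09, limma adjusted p = 0.00057) and than in iWT (-0.41, SE 0.07, adjusted p = 0.0054). In iWT against iEV it gave -0.27 (limma adjusted p = 0.065). This difference was called without any 1 of 4 receptor-line arrays that had R5020 (highest limma adjusted p among these 0.045). For each treatment, leaving out the iWT or the iKR array gave the same fit, so these are not 4 separate results. IRF7, which amplifies the type I interferon response, read 9.19 and 9.13 in iEV, 8.90, 8.92, 9.10 and 8.78 in iWT, and 8.67, 8.62, 8.68 and 8.48 in iKR. It was lower in iKR than in iEV (-0.48, SE 0.07, limma adjusted p = 0.001) and than in iWT (-0.31, SE 0.05, adjusted p = 0.0056). IRF1, an activator of antigen presentation genes, read 7.99 on both iEV arrays, 8.24, 8.23, 8.22 and 7.90 in iWT, and 8.12, 8.04, 8.14 and 7.88 in iKR. Its low values were the arrays with both compounds, and it was called higher in iWT than in iEV (0.24, SE 0.06, limma adjusted p = 0.021), a call lost without the iWT array with neither compound, without the iWT array with AP21967 alone, and without either iEV array.

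Among 13 antiviral GTPases and RNA-directed effectors, 5 were lower and 2 higher in iWT than in iEV, and 9 were lower and 3 higher in iKR than in iEV. MX1, a dynamin-like GTPase that blocks viral replication, read 10.88 and 10.85 in iEV, 9.33, 9.87, 9.97 and 10.03 in iWT, and 8.38, 8.62, 8.65 and 9.0 in iKR. No array of 1 line reached the range of another line. MX1 was 2.32-fold lower in iWT than in iEV (log2 difference -1.22, SE 0.12, limma adjusted p = 0.00011), 5.11-fold lower in iKR than in iEV (-2.35, SE 0.12, adjusted p = 1.3e-06) and 2.20-fold lower in iKR than in iWT (-1.14, SE 0.09, adjusted p = 0.00013). IFIT1, which binds viral RNA that lacks a host cap methylation, read 8.96 and 9.25 in iEV, 7.60, 8.18, 8.11 and 8.38 in iWT, and 7.07, 7.41, 7.37 and 7.16 in iKR. Its lines did not overlap either, with differences of -1.16 in iWT and -1.98 in iKR against iEV and -0.82 between the receptor lines (SE 0.12, 0.12 and 0.09, limma adjusted p = 0.00017, 4.5e-06 and 0.00075).

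The oligoadenylate synthetases, which make the activator of the RNA-degrading enzyme RNase L, were split. OAS1 read 8.45 and 8.67 in iEV, 7.66, 7.83, 8.12 and 7.94 in iWT, and 7.40, 7.59, 7.59 and 7.35 in iKR, and was called in all 3 comparisons (-0.67, -1.07 and -0.40). Its other tested probe set gave -0.44, -0.63 and -0.19, and the last was not called (limma adjusted p = 0.21). OAS3 read 9.53 and 9.76 in iEV, 8.49, 8.67, 8.63 and 8.71 in iWT, and 8.61, 8.56, 8.69 and 8.66 in iKR. The receptor lines were 2.06-fold and 2.05-fold below iEV in OAS3 but overlapped each other, with a difference between them of 0.01 (SE 0.05). OAS2 (6.84 to 7.32) was called lower in iKR than in iEV (-0.39), a call lost without the iEV array with AP21967. OASL (7.53 to 8.19), a relative without synthetase activity, was called lower in both receptor lines than in iEV (-0.35 and -0.52). Both calls were lost without the iEV array with neither compound, and the iWT call was lost in 4 of 17 alternative settings in all. The other probe set of OASL gave -0.52 and -0.90, and was also called lower in iKR than in iWT (-0.38, limma adjusted p = 0.0048).

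RSAD2 and ISG20 went the opposite way. Calls in that direction were near the background, with 3 of 37 genes higher in iWT than in iEV (9.43% of all genes) and 4 in iKR (11.5%). RSAD2 encodes viperin, an enzyme that makes a chain-terminating nucleotide, and read 7.14 and 7.07 in iEV, 7.79, 8.04, 7.74 and 7.81 in iWT, and 7.68, 7.70, 7.70 and 7.60 in iKR. It was 1.64-fold higher in iWT and 1.45-fold higher in iKR than in iEV (limma adjusted p = 0.00015 and 0.00072). ISG20, an RNA exonuclease, read 8.07 and 8.30 in iEV, 8.88, 8.86, 9.08 and 8.95 in iWT, and 8.81, 8.82, 8.89 and 9.01 in iKR. It was 1.70-fold and 1.63-fold higher (limma adjusted p = 6e-05 and 8e-05), and its other probe set gave 1.79-fold and 1.80-fold. GBP1 (5.60 to 6.11), a guanylate-binding GTPase, reached the floor on 1 array only, that of iKR with AP21967, so it entered the test through the line where it was high. With or without the floor it was called higher in iKR than in iEV (0.37) and than in iWT (0.24). The second of these calls was lost on leaving out any 1 of the 8 receptor-line arrays, and the first without the iEV array with AP21967. IFIT2 (7.73 to 8.25) was called lower in iKR than in iEV (-0.37) and than in iWT (-0.25), of which the first call was lost without either iEV array (highest adjusted p = 0.094) and the second in 7 of 18 alternative settings, leaving out the iWT array with neither compound among them. IFIT3 (7.91 to 8.29) and MX2 (8.26 to 8.52) were called lower in iKR than in iEV by 0.30 and 0.23. Both calls were lost without either iEV array or without the iKR array with AP21967 alone, and in 3 and 4 of 17 alternative settings in all. IFIT5 (7.81 to 8.39) was not called with all arrays, but was called lower in both receptor lines without the iEV array with AP21967 (-0.58 and -0.52).

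The membrane restriction factors were both lower in each comparison. BST2, or tetherin, which holds budding virus at the cell surface, read 11.66 and 11.75 in iEV, 11.16, 11.29, 11.44 and 11.14 in iWT, and 10.86, 10.83, 10.77 and 10.75 in iKR. Its 3 lines did not overlap, and it was lower by 0.42 in iWT and 0.87 in iKR than in iEV and by 0.45 in iKR than in iWT, the first call being lost without either iEV array (highest adjusted p = 0.068). IFITM1, which hinders viral entry, read 9.41 and 9.24 in iEV, 8.13, 8.54, 8.59 and 8.64 in iWT, and 7.92, 8.20, 8.13 and 8.05 in iKR. It was lower in iWT (-0.93) and in iKR (-1.33) than in iEV. In IFITM1 the iWT array with neither compound fell inside the iKR range, and the difference between receptor lines of -0.40 (SE 0.09, limma adjusted p = 0.026) was lost in 7 of 17 alternative settings, though it was -0.50 (adjusted p = 0.013) without that array.

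ISG15 is a ubiquitin-like protein, UBE2L6 its conjugating enzyme, HERC5 and HERC6 belong to the ligase family that attaches it, and USP18 removes it. ISG15 read 9.06 and 8.98 in iEV, 8.13, 8.37, 8.59 and 8.32 in iWT, and 7.63, 7.63, 7.80 and 7.71 in iKR. The lines did not overlap, and ISG15 was 1.57-fold lower in iWT than in iEV, 2.48-fold lower in iKR than in iEV and 1.58-fold lower in iKR than in iWT (limma adjusted p = 0.0014, 1.6e-05 and 0.00079). UBE2L6 read 10.74 and 10.67 in iEV, 9.98, 9.99, 10.07 and 9.77 in iWT, and 9.86, 9.78, 9.74 and 9.70 in iKR. It was lower in both receptor lines than in iEV (-0.71 and -0.89, SE 0.07 each), and the receptor lines overlapped (-0.18, limma adjusted p = 0.075). HERC6 (8.17 to 8.63) was called lower by 0.27 in iWT and 0.30 in iKR than in iEV. Both calls were lost without the iEV array with neither compound, and in 6 and 3 of 17 alternative settings in all. HERC5 was called in no line comparison, and USP18 (7.60 to 8.06) was called lower in both receptor lines than in iEV only on leaving out 1 receptor-line array with both compounds (-0.21 and -0.31).

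Among sensors and nuclear body proteins, IFIH1, the RNA sensor MDA5, read 7.54 and 7.25 in iEV, 6.87, 6.91, 6.87 and 7.07 in iWT, and 6.72, 6.63, 6.57 and 6.66 in iKR. It was lower in all 3 comparisons (-0.49, -0.78 and -0.29) without overlap. The last of these calls was lost in 4 of 17 alternative settings, among them leaving out the iWT array with R5020 alone, the iWT array with AP21967 alone or the iKR array with R5020 alone (highest limma adjusted p = 0.074). With the mean of its probe sets the differences were -0.22, -0.41 and -0.18, and the first and last were not called (adjusted p = 0.055 and 0.069). SP110, a nuclear body protein, read 9.37 and 9.22 in iEV, 9.03, 9.01, 9.09 and 9.40 in iWT, and 8.91, 8.91, 8.95 and 9.5 in iKR. Its high values in the receptor lines were the arrays with both compounds, and it was called lower in iWT (-0.27) and iKR (-0.34) than in iEV. Both calls were lost without the iEV array with neither compound and in 7 and 3 of 16 alternative settings in all. Its 3 other probe sets gave -0.20 to -0.28 in iWT and -0.17 to -0.23 in iKR, of which 1 was called in each line. SP100 (8.68 to 8.86) and TRIM14 were not called in a line comparison. IFI16 (4.83 to 5.69), a DNA sensor below the floor, was 1.59-fold lower in iWT and 1.64-fold lower in iKR than in iEV in a fit without the floor (limma adjusted p = 0.00081 and 0.00049).

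The 3 antigen processing genes differed among themselves. PSMB8, a subunit of the immunoproteasome, read 9.49 and 9.45 in iEV, 9.40, 9.38, 9.35 and 9.22 in iWT, and 9.68, 9.69, 9.66 and 9.71 in iKR. Every iKR array was above every other array, and PSMB8 was higher in iKR than in iWT (0.35, SE 0.05, limma adjusted p = 0.0026). Its call against iEV (0.23) was lost in 6 of 16 alternative settings, each leaving out 1 array. PSMB9 (7.48 to 7.98), a second subunit, was called lower in both receptor lines than in iEV (-0.36 and -0.34), and both calls were lost without the iEV array with AP21967. TAP1 (9.11 to 9.20), a peptide transporter, was not called and differed between iKR and iWT by 0.04 (SE 0.04). PSMB8, TAP1 and PSMB9 are neighbours in the genome, as are IFIT1 with IFIT5, IFIT2 with IFIT3, and the MX genes. The HERC genes, IFI44 with IFI44L, and the OAS1, OAS3 and OAS2 group are neighbours too. Genes of the same group are not independent loci.

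The remaining genes held the largest differences from iEV. IFI27, a mitochondrial protein, read 9.97 and 9.89 in iEV, 7.33, 7.62, 7.85 and 7.69 in iWT, and 6.80, 7.09, 7.19 and 7.06 in iKR. It was 5.09-fold lower in iWT and 7.66-fold lower in iKR than in iEV and lower by 0.59 on the log2 scale in iKR than in iWT (limma adjusted p = 1.3e-06, 1.8e-07 and 0.0027). IFI6, which protects cells from death, read 10.34 and 10.51 in iEV, 8.60, 8.97, 9.11 and 8.97 in iWT, and 8.06, 8.17, 8.05 and 8.13 in iKR. It was 2.96-fold, 5.20-fold and 1.76-fold lower in the same comparisons, with no overlap of lines in either gene. IFI44 read 7.54 and 7.42 in iEV, 6.10, 6.52, 6.06 and 6.00 in iWT, and 5.86, 6.06, 5.88 and 5.76 in iKR. The receptor lines overlapped for IFI44, whose difference between them of -0.28 (SE 0.06, limma adjusted p = 0.013) was lost in 4 of 16 alternative settings, while they were 2.58-fold and 3.13-fold below iEV. With the mean of its probe sets the differences from iEV were -0.75 and -0.90, and both were called. IFI35 (8.63 to 9.36) and LGALS3BP (7.44 to 8.08), a secreted glycoprotein, were called lower in both receptor lines than in iEV (-0.44 and -0.57, and -0.42 and -0.37). Without the iEV array with neither compound, the iWT call of IFI35 and the iKR call of LGALS3BP were lost, and both calls of LGALS3BP were lost without the iEV array with AP21967. IFI44L (5.82 to 6.66) was called with all arrays in iKR against iEV (-0.48), a call lost in 4 of 16 alternative settings, and XAF1 (6.05 to 6.35), an antagonist of the caspase inhibitor XIAP, was not called.

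**Figure D2:**
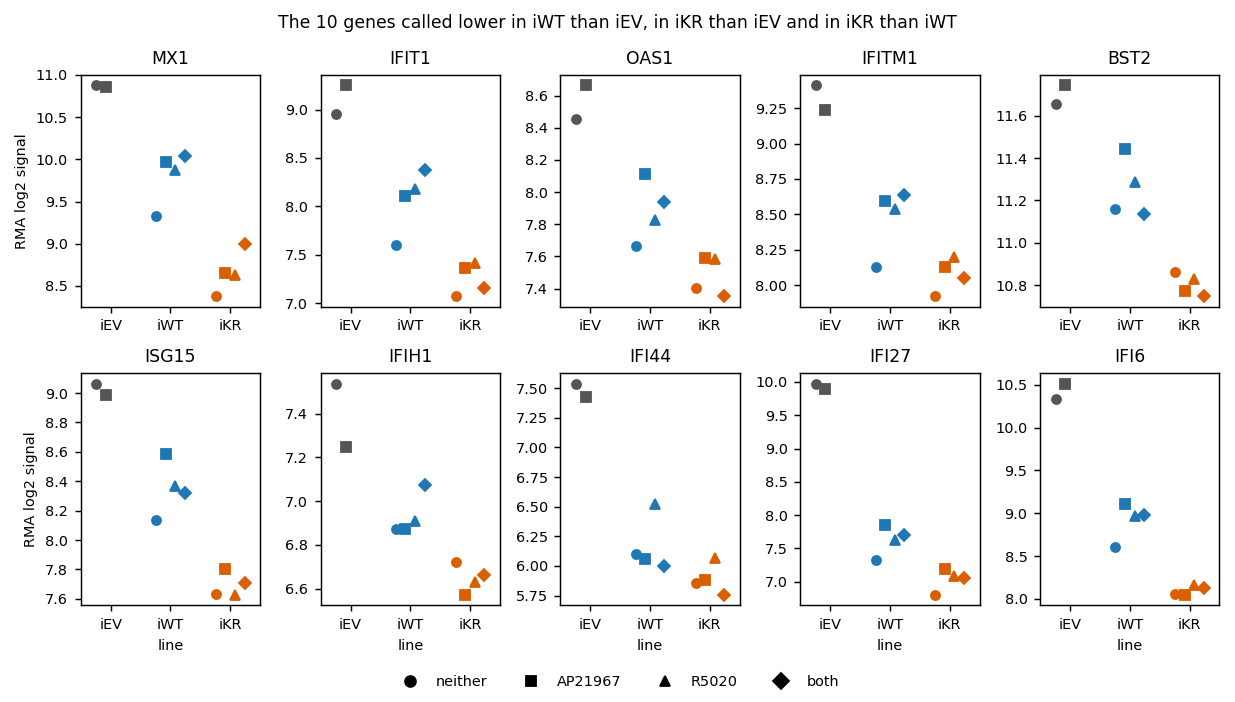
RMA log2 signal (y axis, a separate range for each gene) by line (x axis) for the 10 genes called lower in all 3 line comparisons; each point is 1 array and its shape gives the treatment. The iEV points lie above all others in every panel, and the iWT and iKR points overlap in IFITM1 and IFI44.

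At matched treatments the single-array differences ran the same way. Against iEV with neither compound, 30 of 37 genes were below 0 in iWT (median -0.44) and 31 in iKR (median -0.47). With AP21967 on both arrays, 31 were below 0 in iWT (median -0.18) and 27 in iKR (median -0.36). Between the receptor lines, 27, 28, 26 and 24 genes were lower in iKR with neither compound, AP21967, R5020 and both, with medians of -0.10, -0.17, -0.15 and -0.11. All-gene medians of these pairs lay between -0.01 and 0.03. MX1 was lower in iKR than in iWT by 0.95, 1.32, 1.25 and 1.03 in that order of treatments.

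**Figure D3:**
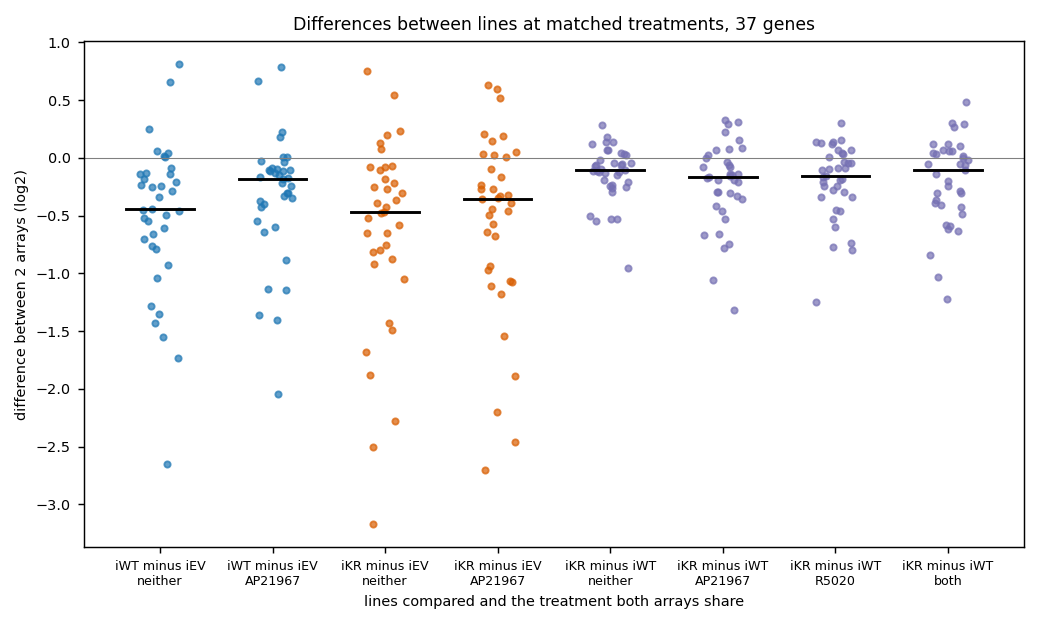
Log2 difference between 2 arrays that share a treatment (y axis) for 8 pairs of lines and treatments (x axis); each point is 1 of 37 interferon-stimulated genes and the black line their median. All 8 medians lie below 0, from -0.47 for iKR against iEV with neither compound to -0.10 for iKR against iWT with neither compound.

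The iWT array with neither AP21967 nor R5020 read low for many of these genes, so every fit was repeated without it. It was the lowest iWT array for 17 of 37 genes (22.0% of all genes), and the matching iKR array was the lowest iKR array for 12 (21.9%). The median of the 37 genes was -0.09 from the mean of the other 3 iWT arrays, beside 0.00 over all genes. MX1 lay 0.63 below that mean, IFIT1 0.62, IFITM1 0.46, IFI6 0.41, IFI27 0.39, OAS1 0.30 and ISG15 0.29. For MX1 the other 3 iWT arrays spanned 0.16, and for IFITM1 0.10. The low reading brought iWT closer to iKR and farther from iEV for these genes. Among the 10 genes called lower in all 3 comparisons, it was the lowest iWT array for 7 but still lay above every iKR array for 9, IFITM1 being the exception.

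**Figure D4:**
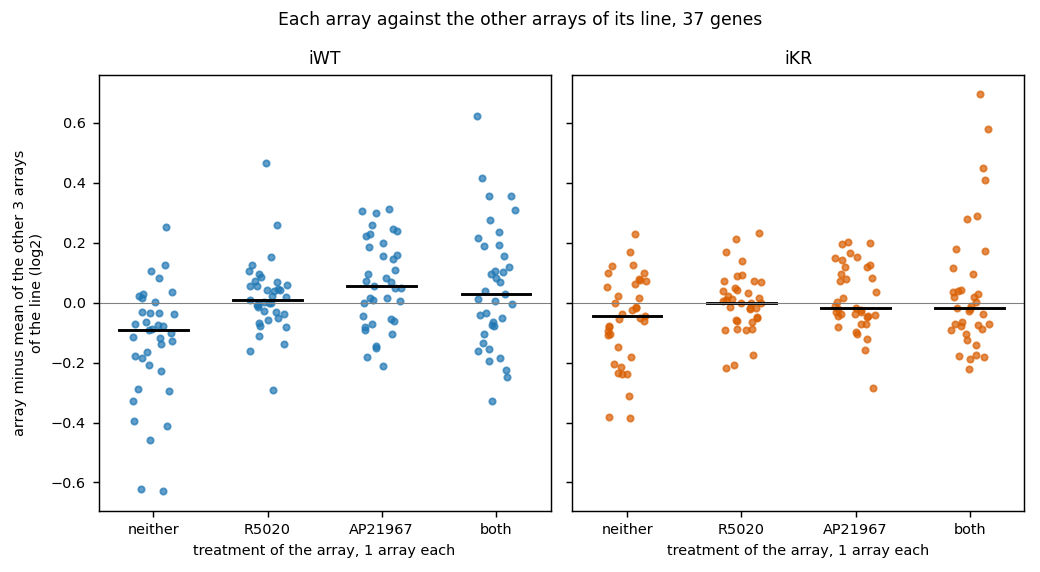
Log2 difference of each array from the mean of the other 3 arrays of its line (y axis) by treatment (x axis), for iWT on the left and iKR on the right; each point is 1 of 37 genes and the black line their median. The iWT array with neither compound has the lowest median, -0.09, with MX1 and IFIT1 at -0.63 and -0.62.

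Most line differences did not rest on that array. Without it, 15 of the 18 genes lower in iWT than in iEV kept their call, and HERC6, OASL and SP110 lost it. In iKR against iWT, 12 of 13 lower genes kept their call and IFIT2 lost it. All 10 genes called in all 3 comparisons kept all 3 calls. MX1 was then lower by 1.07 in iWT than in iEV and by 1.23 in iKR than in iWT (limma adjusted p = 0.00061 and 0.00024). In iKR against iEV, which it enters only through the treatment terms, 24 of 25 lower genes kept their call, IFI44L being lost, and PSMB8 was no longer called higher. The other line calls lost were IRF1 higher in iWT than in iEV and GBP1 higher in iKR than in iWT. Among the treatment calls, IRF1 lower with R5020 and AP21967 was lost, though that array does not enter this difference.

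The differences of AP21967 alone and of R5020 alone in iWT are both measured against that array. In these pairs, AP21967 alone gave 27 of 37 genes above 0 (median 0.11, all genes 0.01) and R5020 alone gave 26 (median 0.06, all genes -0.01). With AP21967, MX1 was higher by 0.64, IFI27 by 0.52, IFIT1 by 0.51, IFI6 by 0.50, IFITM1 by 0.46, and OAS1 and ISG15 by 0.45 each. MX1 alone passed 1.5-fold (1 of 37, with 0.0550% of all genes higher and 0.0275% lower). With R5020, IFIT1 was higher by 0.58 and MX1 by 0.54, and no gene of the list passed 1.5-fold (0.0917% of all genes higher and 0.0183% lower). When R5020 was on both arrays, so that the low array was not used, the AP21967 differences in iWT were 0.16 for MX1, 0.07 for IFI27, 0.20 for IFIT1, 0.01 for IFI6, 0.10 for IFITM1, 0.11 for OAS1 and -0.05 for ISG15. The median over the 37 genes was then 0.01, with 20 above 0. These pairs also differ from the others in holding R5020, and that and the use of the low array cannot be told apart.

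Across the lines, AP21967 was called for no gene of the list and no gene in all (0% higher and 0% lower) by limma. Before adjustment, p was under 0.05 for 8 of the 37 genes that were higher and 1 that was lower, and for 572 of all tested genes (5.24%). The adjusted p of MX1, IFIT1, OAS1, IFI27 and IFI6 was 0.94 each, with fitted differences of 0.29, 0.36, 0.28, 0.28 and 0.22. Without the iWT array with neither compound these were 0.17 for MX1, 0.25 for IFIT1, 0.22 for OAS1, 0.19 for IFI27 and 0.12 for IFI6. In iEV, which has no receptor, the AP21967 array differed from the other by -0.03 in MX1, 0.29 in IFIT1, 0.21 in OAS1, -0.08 in IFI27 and 0.17 in IFI6.

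R5020 without AP21967 was called for no gene of the list and for 1 gene in all, which was higher (0.00917%, with 0% lower). Before adjustment, p was under 0.05 for 7 genes of the list, all of them higher, and for 3.95% of all genes. IFIT1 had 0.58 in iWT and 0.34 in iKR, MX1 0.54 and 0.25, and IFITM1 0.41 and 0.28. The fitted IFIT1 difference was 0.46 (SE 0.12). The 4 receptor-line arrays with AP21967 do not enter it, so leaving out any 1 of them could not change it. Each gave the same fit, in which only the SE fell, to 0.07, and the difference was called (limma adjusted p = 0.048). These 4 fits are therefore not separate support for a response. The iKR values do not use the low iWT array, and each compares 1 array with 1 other.

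With AP21967 present, R5020 raised 3 of 37 genes (5.23% of all genes) and lowered 1 (6.25%), shares near the background. The fit takes the responses of iWT and iKR as replicates, so it does not compare the 2 lines. TRIM14, which carries the antiviral signal at mitochondria, read 8.39 and 8.54 in iEV, 8.18, 8.21, 8.42 and 8.89 in iWT, and 8.31, 8.36, 8.28 and 9.01 in iKR. The array with both compounds was the highest in each receptor line, and the R5020 difference was 0.47 in iWT and 0.74 in iKR (fitted 0.60, SE 0.09, limma adjusted p = 0.0034). Its other probe sets gave 0.35 (called), 0.24 (adjusted p = 0.29) and 0.00 (adjusted p = 0.99), so the difference depends on the probe set. SP110, whose values are above, differed by 0.31 in iWT and 0.55 in iKR (fitted 0.43, SE 0.09, limma adjusted p = 0.014), and its 3 other probe sets gave 0.33 to 0.59 and were called. HERC5 read 7.62 and 7.48 in iEV, 7.48, 7.54, 7.37 and 7.74 in iWT, and 7.55, 7.66, 7.67 and 8.03 in iKR. It differed by 0.37 in each line (fitted 0.37, SE 0.08, limma adjusted p = 0.016). IRF1 differed by -0.32 and -0.26 (fitted -0.29, SE 0.08, limma adjusted p = 0.043), and this call was lost in 6 of 16 alternative settings, each leaving out 1 array. The iWT array with neither compound was among them, but arrays without AP21967 do not enter this difference. Without that array it stayed at -0.29 and only its SE rose, to 0.11. SP100 was not called (-0.14), but another of its probe sets was called lower (-0.34, limma adjusted p = 0.032).

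TRIM22, an antiviral ring-finger protein below the floor, read 4.69 and 4.74 in iEV, 4.75, 4.58, 4.69 and 5.51 in iWT, and 4.72, 4.67, 4.68 and 5.20 in iKR. The 2 arrays with both compounds stood above the other 8, and in a fit without the floor the R5020 difference was 0.67 (SE 0.09, limma adjusted p = 0.0024). None of the 10 genes lower across the lines was called for R5020 in the presence of AP21967 with all arrays. Without the iWT array with AP21967 or the iWT array with both, the fit rests on the iKR pair and called MX1 higher (0.35, limma adjusted p = 0.038) and IFI44L lower (-0.29, adjusted p = 0.045). Without either iKR array of that pair, the fit rests on iWT, and IRF7 (-0.33) and LGALS3BP (-0.31) were called lower beside IRF1, and IFIT5 (0.31) higher. In single-array differences past 1.5-fold with AP21967 present, iWT had none of the 37 genes (1.59% of all genes higher and 1.02% lower) and iKR had TRIM14 alone (3.02% higher and 3.16% lower).

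**Figure D5:**
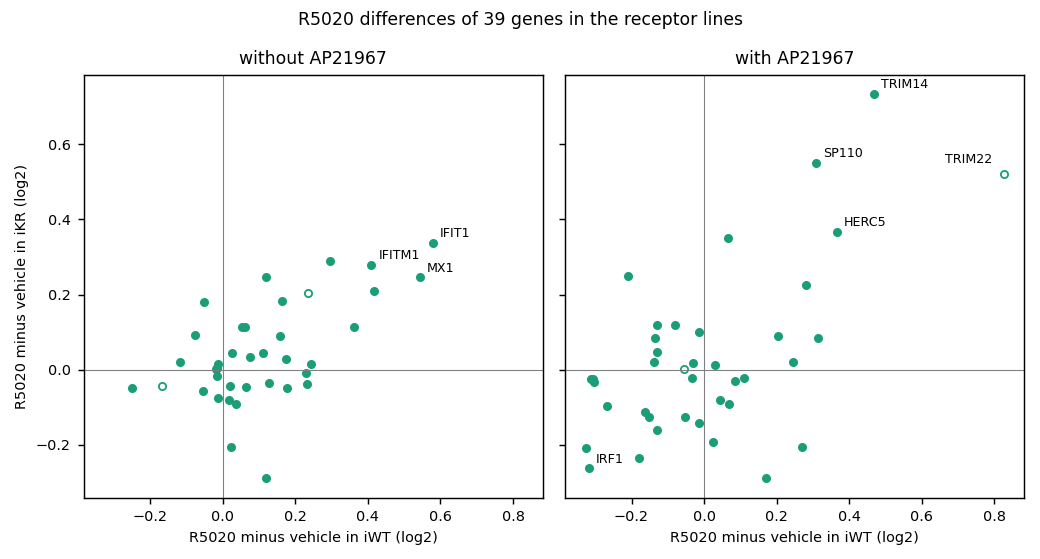
R5020 minus vehicle in iWT (x axis) against the same in iKR (y axis), both log2 differences of 2 arrays, without AP21967 on the left and with it on the right; each point is 1 of 39 genes, open for the 2 below the floor. TRIM14, SP110, HERC5 and TRIM22 stand above 0.3 on both axes with AP21967, and MX1, IFIT1 and IFITM1 lie to the right without it.

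Other genes of the pathway, in 6 lists that exclude the genes above, were counted in the same fits. Of 74 tested, 14 were lower and 7 higher in iWT than in iEV (median -0.03), 15 lower and 8 higher in iKR than in iEV (median -0.04), and 5 lower and 3 higher in iKR than in iWT (median -0.05). The shares over all genes given above for these comparisons were 10.4% lower and 9.43% higher, 10.1% and 11.5%, and 3.47% and 5.14%, so the counts of higher genes were near the background. Of 11 interferon ligand genes with a probe set, 5 were tested and none was called in any comparison. Of 8 receptors and kinases, none was lower in a receptor line, and JAK1 was higher in iWT (0.30) and in iKR (0.38) than in iEV. The RNA sensor RIGI was lower in all 3 comparisons (-0.27, -0.54 and -0.26), as was DDX60 (-0.52, -0.99 and -0.47). LAMP3, a lysosomal membrane protein, was lower in both receptor lines than in iEV (-1.16 and -1.29). The lists that hold these genes also went both ways. Of 14 genes of sensing and induction tested, 5 were lower and 2 higher in each receptor line than in iEV. Of 24 other interferon-stimulated genes tested, 4 were lower and 2 higher in iWT than in iEV (median 0.00). In iKR against iEV, 5 of these were lower and 1 higher (median -0.04). HLA-E, an antigen-presenting molecule, was higher in both (0.58 and 0.50), and PIAS1, a SUMO ligase, likewise (0.46 and 0.64). Their lists went both ways. Of 12 antigen presentation genes tested, 4 were lower and 1 higher in iWT than in iEV, and 3 lower and 2 higher in iKR. HLA-B was among the lower ones (-0.27 in iWT and -0.36 in iKR). Of 11 negative regulators, 1 was lower and 1 higher in iWT, and 2 lower and 1 higher in iKR. The other PIAS genes of that list did not follow PIAS1. Between single arrays with neither compound, PIAS2 differed from iEV by -0.38 in iWT and -0.32 in iKR. In the same pairs PIAS3 differed by -0.20 and -0.14, and PIAS4 by 0.08 and -0.02. With AP21967 and R5020, JAK2 was 2.07-fold higher (1.05, SE 0.09, limma adjusted p = 0.0002).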

How the data were processed

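Total RNA of 10 cultures was hybridized to Affymetrix human genome arrays, 1 per condition. The deposited values are log2 signals that the authors computed with the Robust Multi-array Average method of the affy package, with background adjustment, quantile normalization and 1 summary per probe set. Compound doses are not given here because their notation in the labels is ambiguous. Of 22277 probe sets, 19070 were assigned to 1 gene, 1043 to several and 2164 to none in GEO's platform annotation, and those with several (IFITM2 with IFITM1, RNF31 with IRF9) were left out. Genes of log2 6 or more on at least 1 array were fitted with limma 3.58.1 in R 4.3.3, with Benjamini-Hochberg adjustment over all 10911 genes at 0.05. The line and AP21967 comparisons used 10 arrays with additive terms (4 residual degrees of freedom), and the R5020 comparisons used the 8 receptor-line arrays (2 residual degrees of freedom). Differences between 2 single arrays have no test and were counted past 1.5-fold. Simulated data held 200 changed genes of 10911. In them the iWT against iEV fit recovered 98% of 2-fold and 100% of 4-fold changes, with 4.35% false calls. The iKR against iEV fit gave the same shares with 6.16% false calls, and the R5020 fit with AP21967 recovered 85% and 97%. The simulated noise was independent between arrays, so these rates do not cover the use of arrays of 1 line as replicates. The genes, lists and named-gene rule were chosen with earlier results of these data known. Every gene is named with its range. All 10 values are given for up to 12 of the largest calls per line comparison, for treatment calls, for treatment differences past 1.5-fold between single arrays, and for IRF9, IRF1, IRF7 and MX1. Pathway genes are named only where called, apart from the other PIAS genes given beside PIAS1. Alternatives were leaving out each array, no level floor, a higher floor, other probe sets, the mean of probe sets, median centring, cyclic loess, an intensity trend, fitting only the receptor lines and a 2.0-fold threshold.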

Additional observations from a re-analysis of the deposited data

How the results depend on the processing

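Pairing by replicate was not possible because every condition holds 1 array and the conditions share only replicate number 1. Arrays were matched by treatment instead, and a fit of the 8 receptor-line arrays with a mean for each treatment gave 2 genes higher and 12 lower in iKR than in iWT, IFIT2 losing its call (limma adjusted p = 0.054). Leaving out 1 array at a time, genes of the list called higher and lower ranged from 2 to 3 and 13 to 23 in iWT against iEV, from 2 to 4 and 17 to 26 in iKR against iEV, and from 1 to 2 and 10 to 13 in iKR against iWT. They were 0 for AP21967, 0 to 1 and 0 for R5020 without AP21967, and 3 to 4 and 0 to 3 for R5020 with AP21967. Without the probe sets marked _x_at and _s_at, 27 genes of the list were tested, and 2 were higher in iKR than in iEV, 0 higher and 8 lower in iKR than in iWT, and 1 higher and 2 lower with R5020 and AP21967. In that setting TRIM14 had a difference of -0.002, and none passed 1.5-fold for R5020 in iKR with AP21967 (0). With a floor on the mean of log2 7, and with the mean of all probe sets, 1 gene was higher in iKR than in iWT, and with that mean 0 passed 1.5-fold for R5020 in iKR with AP21967. Median centring gave 2 genes lower with R5020 and AP21967 and 1 past 1.5-fold for R5020 alone in iWT. At 2.0-fold, 0 genes passed for AP21967 in iWT and 0 for R5020 in iKR with AP21967, and without a floor 1 passed for R5020 in iWT with AP21967. The causes were not tested. The calls of MX1, IFIT1, ISG15, IFI27 and IFI6 in the 3 line comparisons held under every alternative run. Of 471 values of single genes under other settings, 465 kept their direction and call. Leaving out an array, 592 of 682 did and 90 lost the call. With another probe set, 13 of 20 did, 6 lost the call and 1 reversed.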
